A study of Rattus norvegicus with 24 samples.

Results

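Growth hormone (GH) injected for 30 days was compared with saline in the hippocampus of GH-deficient dwarf (dw/dw) rats. The comparison took the 4 arrays labelled dw/dw+GH30 and the 4 arrays labelled dw/dw+sal30, 8 of the 24 arrays in the series, each hybridised with total RNA of 1 hippocampal sample. The dw/dw rats were of the HsdOla:DWARF-dw-4 strain. The treated rats received 300 µg GH under the skin and the others saline, both from postnatal day 35, and both groups were 65 days old when the hippocampus was taken. All 8 rats carried the dwarf genotype, so the comparison held GH deficiency constant and varied GH replacement. Heterozygous (HZ) rats of the same colony, given saline to the same age, and the 3 matching groups of 42 days of age, treated for 7 days, had 4 arrays each. The source species of the GH and how often it was injected were not given in the sources used here.

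GH is secreted by the pituitary and acts through its receptor, the kinase JAK2 and the transcription factor STAT5. In liver this pathway drives insulin-like growth factor 1 (IGF-1), which circulates bound to IGF-binding proteins and reaches the brain. STAT5 also induces the genes of its own inhibitors, Cish and the SOCS proteins, which are classical readouts of GH action in liver and other tissues. In hippocampus, IGF-1 is known to act on neurogenesis, synapses and myelin.

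No gene passed the test between GH-treated and saline-treated dwarfs after correction for the number of genes. Of 11487 probes tested, 0 had an adjusted p under 0.05 (0% of probes; limma, Benjamini-Hochberg), and no adjusted p was below 0.9996. At an unadjusted p under 0.05 there were 386 probes (3.36%), 187 higher with GH (1.63%) and 199 lower (1.73%), against 574 that this threshold gives by chance. For 267 probes (2.32%) the GH arrays all lay on one side of the saline arrays. With 4 arrays against 4, chance gives such a separation for a share of 0.029, so separation was no more frequent than by chance. Among the 7983 named genes tested, 3979 (49.8%) were higher with GH. The genes described below are therefore those with the least overlap or the largest differences, and no single one passed the test.

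The arrays left little room for large differences in most genes. The median width of the 95% confidence interval on either side of the difference was 0.08 on the log2 scale, and 90% of probes had 0.187 or less. The whole interval lay within 0.5 in either direction for 99.3% of probes and within 1 for 99.9%, leaving 78 probes and 12 probes outside. Observed differences had a median size of 0.02 and a 99th percentile of 0.17. Only 0.505% of probes differed by more than 0.2. Dim probes near background have compressed differences on this scale, so these widths understate what is possible for genes of low signal.

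**Figure D1:**
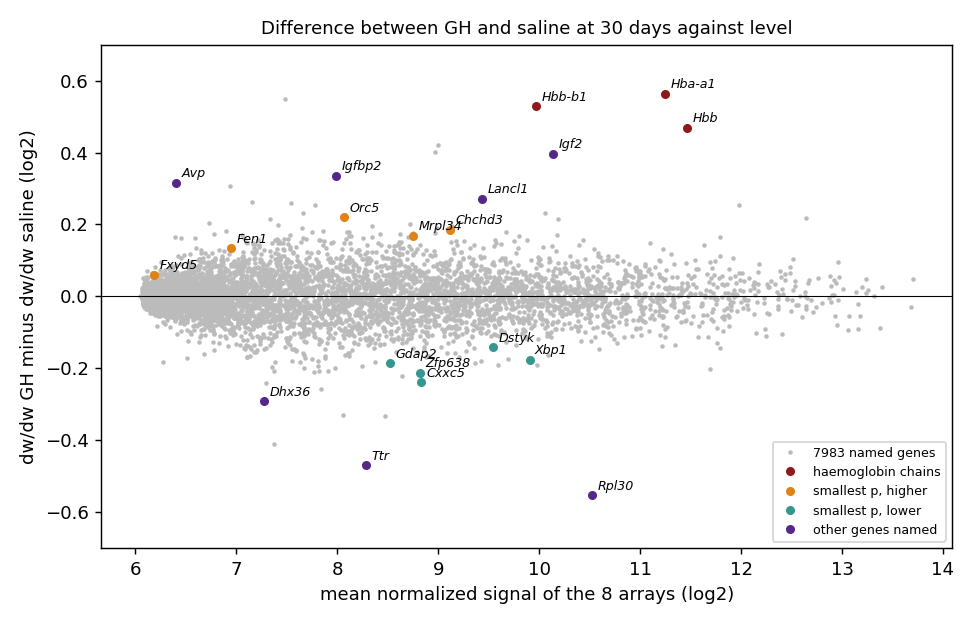
Difference between dw/dw rats given GH and dw/dw rats given saline for 30 days (vertical axis, log2) against the mean normalized signal of the 8 arrays (horizontal axis, log2) for 7983 named genes, each a point. Most points lie close to 0 at every signal level, and the haemoglobin chains, Rpl30, Ttr and Igf2 lie farthest out among the genes labelled.

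Markers of hippocampal neurons were present in both groups. Of 19 marker genes tested, 18 were detected on all 8 arrays, the exception being Spink8, detected on 1. Neurogranin (Nrgn), a calmodulin-binding protein of excitatory neurons, averaged 13.11 ± 0.04 log2 units with GH and 13.20 ± 0.04 with saline (SD, n = 4 each). Neurod6 averaged 10.15 ± 0.14 with GH and 10.05 ± 0.17 with saline. Of 15 tested markers of thalamus, striatum, hypothalamus and pituitary, 11 were also detected on all 8 arrays. Detection therefore did not set the labelled tissue apart from its neighbours, and levels of different probes cannot be set against each other.

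One array stood apart. GH replicate 1 had 51.2% of probes detected, against 45.9% to 49.2% on the other 7, and a mean correlation of 0.9955 with them, against 0.9969 to 0.9977 for each of the others. It lay at −11.37 on the first principal component, which held 42.1% of the variance, and saline replicate 1 lay next at −5.62. Several values below are also given without this array, or as the range with 1 array left out at a time. Both groups lay on one slide, GH in positions 5 to 8 and saline in positions 1 to 4, so treatment and block of positions cannot be told apart.

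No gene of the GH and IGF axis passed the test. Of 34 genes listed for the axis, 29 had a probe and 18 were tested, of which 9 were higher and 9 lower with GH. Their median difference was 0.00 log2 units, the same as over all named genes, and 0 of the 18 had an unadjusted p under 0.05. No probe of the array was named for Igf1, so the transcript of IGF-1 was not measured here. The GH receptor probe (Ghr) was detected on 0 of the 8 arrays and on 1 of all 24.

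The STAT5 target genes of the axis were close to background. The Cish promoter is shown because it holds repeated STAT5 motifs, TTCNNNGAA, in capitals. The sequence is RefSeq's, build GRCr8, plus strand, chr8:116850719-116850868, covering 250 to 101 bases before the gene's start.
Cish: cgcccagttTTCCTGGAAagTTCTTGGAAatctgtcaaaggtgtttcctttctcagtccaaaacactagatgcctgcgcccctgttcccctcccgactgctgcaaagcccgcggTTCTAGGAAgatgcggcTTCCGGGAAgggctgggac
The stretch holds 4 matches, and 8.87% of 33469 RefSeq promoter windows of 300 bases hold at least 1 (the motif reads the same on both strands). Among the 16 tested axis genes matched to a promoter, Cish was the only one with a match. Cish, which encodes a cytokine-inducible inhibitor of STAT5 signalling, measured 6.08, 6.09, 6.12 and 6.09 log2 units on the GH arrays and 6.09, 6.10, 6.08 and 6.10 on the saline arrays. All 8 values lay within the same narrow band, and the probe was detected on 1 of the 8 arrays. Socs2, a second feedback inhibitor of the GH receptor, measured 6.13, 6.16, 6.12 and 6.09 with GH and 6.13, 6.14, 6.14 and 6.18 with saline, and was detected on 7 of the 8. The difference was −0.02 ± 0.02 (SE; 95% interval −0.06 to 0.02), and ran from −0.0291 to −0.00599 with 1 array left out. At such signals a difference may not have been detectable.

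Receptors and kinases of the axis overlapped between the groups. The IGF-1 receptor gene (Igf1r) measured 6.98, 6.99, 6.98 and 7.12 with GH and 7.01, 7.00, 7.18 and 7.14 with saline. Of the 4 GH arrays, 3 lay just under the lowest saline array and GH replicate 4 lay among the saline arrays. The difference was −0.07 ± 0.06 (95% interval −0.19 to 0.06), and ran from −0.103 without GH replicate 4 to −0.0351 without saline replicate 3. Jak2, the kinase bound to the GH receptor, differed by −0.03 ± 0.06, and Stat5b by 0.01 ± 0.01. Somatostatin (Sst), which inhibits GH release from the pituitary and marks a class of hippocampal interneurons, differed by −0.04 ± 0.12. The sign of each of these 3 small differences turned when a single array was left out.

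The largest differences within the axis belonged to Igf2 and Igfbp2, and both varied widely between rats of one group. Igf2, a fetal growth factor that the meninges and choroid plexus keep expressing in the adult brain, measured 10.02, 10.46, 9.77 and 11.09 with GH and 9.66, 10.67, 10.04 and 9.39 with saline. Igfbp2, which encodes an IGF-binding protein, measured 7.99, 8.21, 7.54 and 8.89 with GH and 7.56, 8.49, 7.92 and 7.30 with saline. GH replicate 4 was highest for both and saline replicate 4 lowest, and the groups overlapped. The difference was 0.40 ± 0.37 for Igf2 (95% interval −0.37 to 1.16) and 0.34 ± 0.39 for Igfbp2 (limma, adjusted p = 0.9996 for both). Without GH replicate 4 the differences were 0.145 for Igf2 and 0.0922 for Igfbp2, and without saline replicate 2 they were 0.64 and 0.559. The 21 tested markers of meninges and fibroblasts, a list that holds both genes, had a summed level, taken as their mean deviation from the 8-array average, between −0.15 and 0.28 on the GH arrays and between −0.21 and 0.15 on the saline arrays. It was highest on GH replicate 4 too. Of those markers 16 were higher with GH, against 49.8% of all named genes, median 0.05, with 0 at an unadjusted p under 0.05. Col1a2, a collagen chain, differed by 0.40 and decorin (Dcn) by −0.22. The part of meningeal tissue in these values was not tested, and in a whole-tissue sample more cells of a type and more RNA per cell cannot be told apart.

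Haemoglobin transcripts had some of the largest differences of the comparison. Hba-a1, an alpha chain, measured 11.53, 11.54, 11.31 and 11.72 with GH and 10.72, 10.93, 11.59 and 10.61 with saline. Of the saline arrays, 3 lay below every GH array, and saline replicate 3 lay among the GH arrays. The difference was 0.56 ± 0.19, a 1.48-fold ratio (95% interval 0.17 to 0.95; limma, adjusted p = 0.9996). Hbb-b1, a beta chain, measured 10.12, 10.27, 10.15 and 10.39 with GH and 9.35, 9.79, 10.35 and 9.32 with saline, a difference of 0.53 ± 0.19. Hbb, a closely related beta chain, measured 11.55, 11.81, 11.57 and 11.86 with GH and 10.83, 11.31, 11.94 and 10.84 with saline, a difference of 0.47 ± 0.20. Saline replicate 3 was the high array of its group for each chain, and on Hbb it was above every GH array. With 1 array left out, the difference ran from 0.445 to 0.772 for Hba-a1, from 0.401 to 0.745 for Hbb-b1 and from 0.336 to 0.705 for Hbb. The highest values came without saline replicate 3 and the lowest without saline replicate 4 (Hba-a1 and Hbb-b1) or 1 (Hbb), with no adjusted p under 0.05. HZ rats given saline averaged 11.12 ± 0.15 for Hba-a1 (SD, n = 4), between the dwarf groups given GH and saline. The beta-chain probes stand for near-identical genes and may not tell them apart, so the 3 chains are not independent measurements.

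The other tested transcripts of red blood cells gave little to set beside the haemoglobins. Of the 8 tested members of the red blood cell list, all were higher with GH, against 49.8% of all named genes, but the 5 beside the haemoglobins differed by 0.00 to 0.03. Epb42, Tfrc, Slc4a1 and Ahsp, the chaperone of alpha haemoglobin, averaged 6.05 to 6.16 in either group, near background, where differences are compressed, and Ahsp was detected on 0 of the 8 arrays. Bpgm, the enzyme of 2,3-bisphosphoglycerate synthesis, which brain also expresses, differed by 0.03 ± 0.03, and by 0.02 without GH replicate 1. The list's mean deviation ranged between 0.05 and 0.16 on the GH arrays and between −0.25 and 0.15 on the saline arrays, and 3 of its 8 genes had an unadjusted p under 0.05, against 139 of 7983 (1.74%) higher over all named genes. The amount of blood left in the tissue was not tested.

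**Figure D2:**
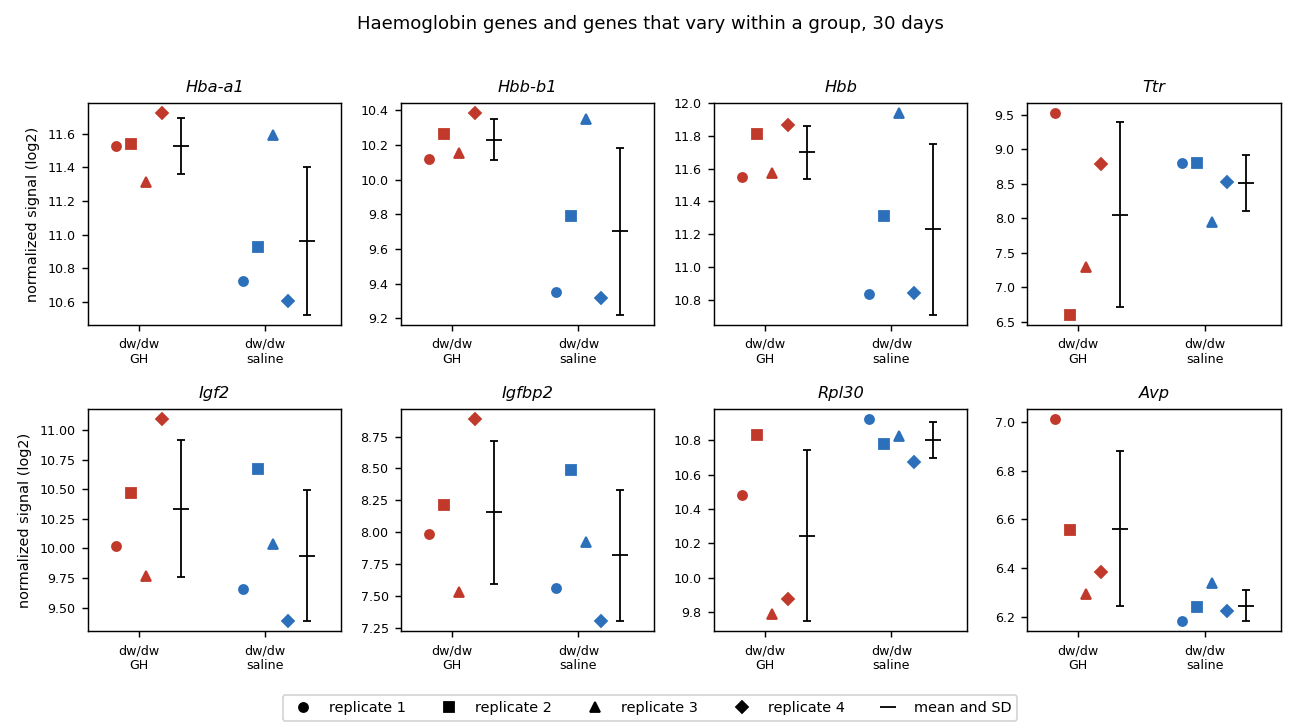
Normalized signal (log2, vertical axes, each with its own range) of 3 haemoglobin chains, Ttr, Igf2, Igfbp2, Rpl30 and Avp on the 4 arrays of dw/dw rats given GH (left, red) and the 4 of dw/dw rats given saline (right, blue) for 30 days; marker shapes give the replicate number and bars the mean and SD. Saline replicate 3 lies among the GH arrays for Hba-a1 and Hbb-b1 and above them for Hbb, GH replicate 1 is the high array for Avp, and the groups overlap in every panel.

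The genes with the smallest p included several components of mitochondria, in both directions. The share of such genes among all those tested was not counted, so their presence here does not show an excess. Mrpl34, a protein of the large subunit of the mitochondrial ribosome, measured 8.78, 8.79, 8.89 and 8.88 with GH and 8.61, 8.69, 8.63 and 8.73 with saline. Every GH array lay above every saline array. The difference was 0.17 ± 0.04, or 12.4% (95% interval 0.08 to 0.25), and its p, although the smallest of all probes, came to 0.9996 after adjustment (limma). Chchd3, a subunit of the complex that shapes the cristae of the inner mitochondrial membrane, measured 9.21, 9.12, 9.29 and 9.21 with GH and 8.98, 8.98, 9.05 and 9.08 with saline, again without overlap. Its difference was 0.19 ± 0.05. Higd2a, an assembly factor of cytochrome c oxidase, differed by 0.15 ± 0.05 with some overlap. Among the lower genes, Mtg2, a GTPase in mitochondrial ribosome assembly, measured 6.26, 6.27, 6.33 and 6.25 with GH and 6.33, 6.38, 6.34 and 6.34 with saline, a difference of −0.07 ± 0.02 with arrays that only just separated.

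The promoter of Mrpl34 holds 1 STAT5 motif and is shown for that gene's place at the head of the list, with the motif in capitals. It is the RefSeq sequence of the 100 bases before the gene's start, build GRCr8, plus strand, chr16:18186347-18186446.
Mrpl34: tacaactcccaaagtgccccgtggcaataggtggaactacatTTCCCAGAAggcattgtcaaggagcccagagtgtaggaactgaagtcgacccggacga
Of the 20 genes with the smallest p, 10 in each direction, 3 had the motif in their promoter window: Mrpl34 and Fen1, both higher, and Zfp638, lower. That is 14.3% of their promoters, against 8.87% of all promoters.

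Over all named genes, 139 of 7983 (1.74%) were higher with GH at an unadjusted p under 0.05 and 49.8% were higher at any p. Of 57 tested proteins of the mitochondrial ribosome, 37 were higher with GH, median 0.02, and 2 had an unadjusted p under 0.05, Mrpl34 and Mrpl32 (0.15 ± 0.07). Of 27 genes of cristae, import and dynamics, 19 were higher, median 0.03, and 2 had an unadjusted p under 0.05, Chchd3 and Timm23, a channel of protein import (0.12 ± 0.05). Of 56 subunits of oxidative phosphorylation, 39 were higher, median 0.01, with 0 at that level. The median over all named genes was 0.00. The mitochondrial ribosome list's mean deviation ran from −0.013 to 0.041 with GH and from −0.023 to 0.002 with saline. For cristae, import and dynamics it ran from 0.0004 to 0.032 with GH and from −0.032 to 0.005 with saline. For oxidative phosphorylation it ran from −0.064 to 0.069 with GH and from −0.014 to −0.0004 with saline. The groups overlapped for each list.

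Orc5 and Fen1, which act in DNA replication, had higher values with GH. Orc5, a subunit of the origin recognition complex, measured 8.06, 8.18, 8.29 and 8.15 with GH and 7.97, 8.02, 7.88 and 7.95 with saline, a difference of 0.22 ± 0.06. The groups did not overlap. Fen1, the flap endonuclease that processes Okazaki fragments, measured 7.12, 7.01, 6.93 and 6.98 with GH and 6.81, 6.90, 6.87 and 6.94 with saline. The lowest GH array lay just under the highest saline array. The Fen1 difference was 0.13 ± 0.04, and 0.0963 without GH replicate 1. Of the 9 tested genes of replication origins and the MCM helicase, 4 were higher, median −0.01. Of 15 genes of neurogenesis and proliferation, 8 were higher, median 0.01, and Sox4, a transcription factor of immature neurons, was the 1 with an unadjusted p under 0.05 (0.10 ± 0.03), against 1.74% of all named genes in that direction.

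The remaining higher genes by p included transcripts close to background. Fxyd5, a regulator of the sodium pump, measured 6.19, 6.21, 6.21 and 6.25 with GH and 6.17, 6.14, 6.15 and 6.17 with saline. Nfatc2ip was detected on 4 of 4 GH arrays and on 0 of 4 saline arrays, and Tcf19 on 3 of 4 GH arrays and on 0 of 4 saline arrays. Against the lowest signal detected on each saline array, these bounds came to at least 0.04 log2 units for Nfatc2ip and at least 0.02 for Tcf19, so both genes sat at the edge of detection. Across all 24 arrays Tcf19 was detected on 4, the fewest that the filter allowed. It was thus tested only through its GH arrays, and its detection counts and bound were partly set by the filter. Mesd, a chaperone of Wnt co-receptors, differed by 0.17 ± 0.05 with overlap.

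Vasopressin (Avp), a hypothalamic neuropeptide, measured 7.01, 6.56, 6.29 and 6.38 with GH and 6.18, 6.24, 6.34 and 6.22 with saline. GH replicate 1 was far above the rest. The difference was 0.32 ± 0.10 with that array and 0.17 without it.

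Xbp1 was the lower gene with the smallest p. Its transcript is spliced to encode an active transcription factor when misfolded protein builds up in the endoplasmic reticulum. That step is part of a program called the unfolded protein response. Xbp1 measured 9.81, 9.80, 9.85 and 9.81 with GH and 10.01, 10.06, 9.91 and 9.99 with saline, with no overlap. The difference was −0.18 ± 0.05 (95% interval −0.27 to −0.08; limma, adjusted p = 0.9996). HZ rats given saline measured 9.91, 9.88, 9.84 and 9.70. Its promoter is shown because the window holds the endoplasmic reticulum stress element (CCAAT and CCACG set 9 bases apart), in capitals, searched on both strands. The sequence is RefSeq's, build GRCr8, plus strand, chr14:84604523-84604622, the 100 bases before the gene's start.
Xbp1: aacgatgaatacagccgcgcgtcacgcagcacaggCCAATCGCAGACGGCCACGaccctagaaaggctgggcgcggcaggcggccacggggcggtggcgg
Of all promoter windows, 0.0657% hold this element, and Xbp1 was the only 1 of the 20 genes with the smallest p that did.

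The rest of the unfolded protein response was divided. Of 20 tested genes, 9 were higher and 11 lower, with a median of −0.03. Xbp1 and Syvn1, a ubiquitin ligase that clears misfolded proteins, were the 2 with an unadjusted p under 0.05, against 144 of 7983 (1.8%) lower over all named genes. Syvn1 measured 10.06, 10.09, 10.06 and 10.05 with GH and 10.08, 10.26, 10.19 and 10.14 with saline, a difference of −0.10 ± 0.04. Pdia4, a protein disulfide isomerase, differed by −0.10 ± 0.05. The chaperone Hspa5 differed by −0.05, while Atf4 and Sec61b differed by 0.04 and 0.06.

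The other lower genes by p acted in unlike processes. Dstyk, a dual-specificity kinase, measured 9.42, 9.47, 9.55 and 9.46 with GH and 9.56, 9.67, 9.61 and 9.62 with saline. The highest GH array lay just under the lowest saline array, and the difference was −0.14 ± 0.04. Zfp638, a zinc-finger protein that binds nucleic acids, measured 8.73, 8.64, 8.65 and 8.83 with GH and 8.96, 8.93, 8.86 and 8.94 with saline, a difference of −0.21 ± 0.06. Cxxc5, a DNA-binding protein that restrains Wnt signalling, measured 8.76, 8.61, 8.66 and 8.81 with GH and 8.85, 9.02, 9.10 and 8.82 with saline, a difference of −0.24 ± 0.07. For both, every GH array was below every saline array, for Cxxc5 by 0.01 at the closest. Gdap2 and Plekhm2, an adaptor that ties lysosomes to kinesin, also separated, by −0.19 ± 0.05 and −0.20 ± 0.06. Of the degradation genes, Atg3, the conjugating enzyme that attaches lipid to LC3 in autophagy, differed by −0.10 ± 0.03 and Ube2k, a ubiquitin-conjugating enzyme, by −0.07 ± 0.02. Zfyve28, an endosomal protein, differed by −0.05 ± 0.02.

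**Figure D3:**
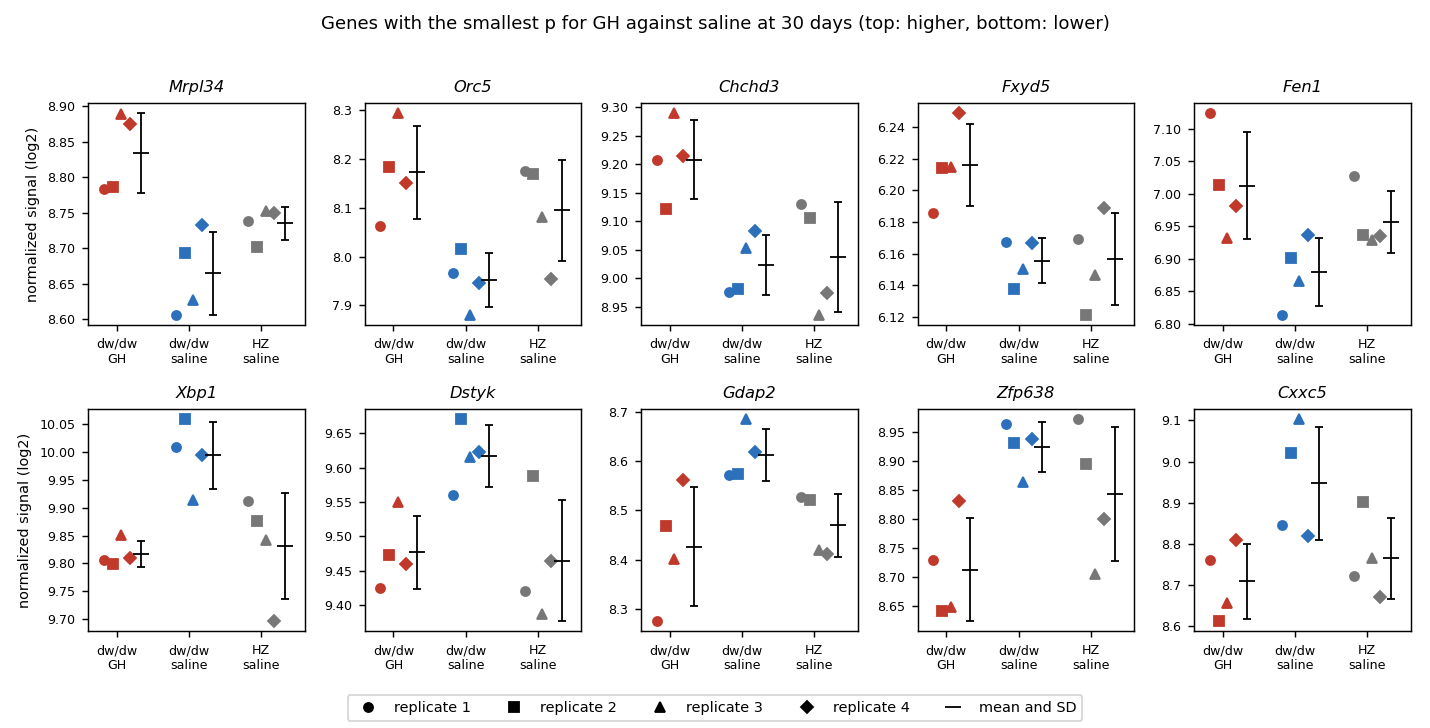
Normalized signal (log2, vertical axes, each with its own range) of the 5 higher (top row) and 5 lower genes (bottom row) with the smallest p, on arrays of dw/dw rats given GH (red), dw/dw rats given saline (blue) and HZ rats given saline (grey) at 30 days; marker shapes give the replicate number and bars the mean and SD, n = 4 each. GH and saline arrays of dwarfs separate in every panel except Fen1, by small steps.

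Arrays separated completely for 79 named genes higher with GH (0.99% of 7983) and 101 lower (1.27%). With 4 arrays against 4, chance gives a share of 0.029 over both directions. The largest separated differences upward were those of Lancl1, Sod3, Cdk14, Orc5 and Mx1. Lancl1, a glutathione-binding protein, measured 9.53, 9.61, 9.64 and 9.50 with GH and 9.48, 9.27, 9.14 and 9.32 with saline, a difference of 0.27 ± 0.11. Sod3, the extracellular superoxide dismutase, measured 8.01, 7.82, 7.83 and 7.96 with GH and 7.75, 7.64, 7.62 and 7.59 with saline, a difference of 0.25 ± 0.08. Cdk14, a cyclin-dependent kinase, differed by 0.23 ± 0.12, its GH replicate 1 being the highest at 10.38, and by 0.164 without that array. The largest separated difference downward was that of Dhx36, a helicase that unwinds G-quadruplexes, at 7.08, 7.18, 6.98 and 7.27 with GH and 7.44, 7.49, 7.31 and 7.44 with saline. Its difference was −0.29 ± 0.13, and Cxxc5, Zfp638, Plekhm2 and Gdap2 followed. These errors come from all 24 arrays, so genes that spread more in other groups carry a wider error than their 8 arrays show.

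Mx1, an interferon-induced GTPase, measured 7.36, 7.40, 7.61 and 7.40 with GH and 7.22, 7.22, 7.24 and 7.21 with saline, a difference of 0.22 ± 0.12. Mx2 differed by 0.16 ± 0.08, but by 0.04 without GH replicate 1, whose value of 7.05 was above every other array. Of 13 tested genes of antigen presentation and interferon response, 11 were higher, median 0.04, and Mx2 was the 1 with an unadjusted p under 0.05. Over all named genes 49.8% were higher, and 1.74% were higher at that level. The list's mean deviation was 0.15 on GH replicate 1, the array that stood apart, and −0.05 to 0.02 on the other GH arrays. On the saline arrays it ran from −0.07 to 0.002, so the groups overlapped.

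Myelin and its cells lay slightly to the higher side. Of 18 tested genes of oligodendrocytes and myelin, 15 were higher with GH, median 0.05, and Mag, a myelin glycoprotein at the axon surface, was the 1 with an unadjusted p under 0.05. Over all named genes those shares were 49.8% higher and 1.74% higher at that level. The list's mean deviation ran from −0.07 to 0.06 on the GH arrays and from −0.08 to 0.03 on the saline arrays, so the groups overlapped. Mag measured 6.24, 6.23, 6.24 and 6.27 with GH and 6.19, 6.24, 6.20 and 6.19 with saline, near background. Opalin, an oligodendrocyte membrane protein, differed by 0.19 ± 0.15, and its highest array was saline replicate 3 at 8.61, without which the difference was 0.317. Of 10 precursor genes, 9 were higher, median 0.04, among them the growth factor receptor Pdgfra, at 7.70, 7.60, 7.47 and 7.46 with GH and 7.41, 7.39, 7.43 and 7.35 with saline. The Pdgfra arrays separated, with a difference of 0.16 ± 0.08, or 0.111 without GH replicate 1, but fibroblasts of the meninges also express that gene. Myelin basic protein (Mbp) differed by 0.01. Olig1, Olig2 and Sox10 belong to both lists, so their counts are not separate.

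Neuronal and synaptic genes lay on both sides of 0. Of 19 markers of pyramidal and granule neurons, 13 were higher, median 0.03. Neurod1, a transcription factor of granule neurons, measured 8.41, 8.50, 8.52 and 8.26 with GH and 8.35, 8.31, 8.15 and 8.21 with saline, a difference of 0.17 ± 0.06 with overlap. Nrgn differed by −0.09 ± 0.04, Camk2a, the kinase of synaptic plasticity, by −0.13 ± 0.07 (−0.0703 without saline replicate 3), and the scaffold gene Dlgap1 by −0.13 ± 0.06. Sv2b, a synaptic vesicle protein, measured 13.33, 13.36, 13.36 and 13.29 with GH and 13.36, 13.43, 13.48 and 13.43 with saline, a difference of −0.09 ± 0.03. Of 20 tested genes of NMDA and AMPA receptors and the postsynaptic density, 9 were higher, median −0.004. Homer2, higher by 0.08, was the 1 of them with an unadjusted p under 0.05. Of 22 genes of synaptic vesicles and release, 14 were higher, median 0.02, and Sv2b was the 1 at that level. Among all named genes 49.8% were higher, with 1.74% higher and 1.8% lower at that level. Of 21 interneuron and neuropeptide genes, 8 were higher, median −0.02, with cortistatin (Cort) at −0.06 ± 0.03 and parvalbumin (Pvalb) at 0.15 ± 0.08 (0.0993 without saline replicate 1). Among immediate early genes, Egr2 was lower on every GH array, at 7.13, 7.26, 7.25 and 7.27 with GH and 7.37, 7.40, 7.38 and 7.33 with saline, and 9 of the 22 tested were higher, median −0.01.

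Cytosolic ribosome genes lay on the lower side, with 19 of 57 higher, against 49.8% of all named genes, and a median of −0.02. The list's mean deviation ran from −0.08 to 0.04 on the GH arrays and from −0.02 to 0.07 on the saline arrays, so the groups overlapped. The extreme was Rpl30, a protein of the large subunit, at 10.48, 10.83, 9.79 and 9.88 with GH and 10.92, 10.77, 10.83 and 10.67 with saline. GH replicates 3 and 4 lay far below all saline arrays and GH replicate 2 lay among them. The difference was −0.55 ± 0.22. The next 3 genes of that list by p differed by −0.06 (Rpl35), 0.13 (Rps26) and −0.12 (Rps23).

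Of the remaining lists, 19 of 29 proteasome genes were higher, median 0.01, and Psmc5, an ATPase of the regulatory particle, separated at 10.25, 10.21, 10.22 and 10.12 with GH and 10.05, 10.05, 10.03 and 10.10 with saline. For comparison, 49.8% of all named genes were higher. Arrays separated upward for 0.99% of all named genes and downward for 1.27%. Cholesterol synthesis, with 11 of 19 genes higher, had a median of 0.00 and 0 genes with an unadjusted p under 0.05. In the antioxidant list of 29 genes, 15 were higher, and Txnrd1, the cytosolic thioredoxin reductase, separated downward at 6.95, 7.08, 7.03 and 7.03 with GH and 7.22, 7.09, 7.28 and 7.17 with saline. Txnrd1 and Gss, glutathione synthetase, which was higher by 0.04, each had an unadjusted p under 0.05. Those shares over all named genes were 1.8% lower and 1.74% higher. Tti1, which stabilises the mTOR kinase family, separated upward by 0.12 ± 0.05. Of the 20 genes of PI3K, AKT and mTOR signalling, 6 were higher, median −0.01, and 1 gene separated in each direction.

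**Figure D4:**
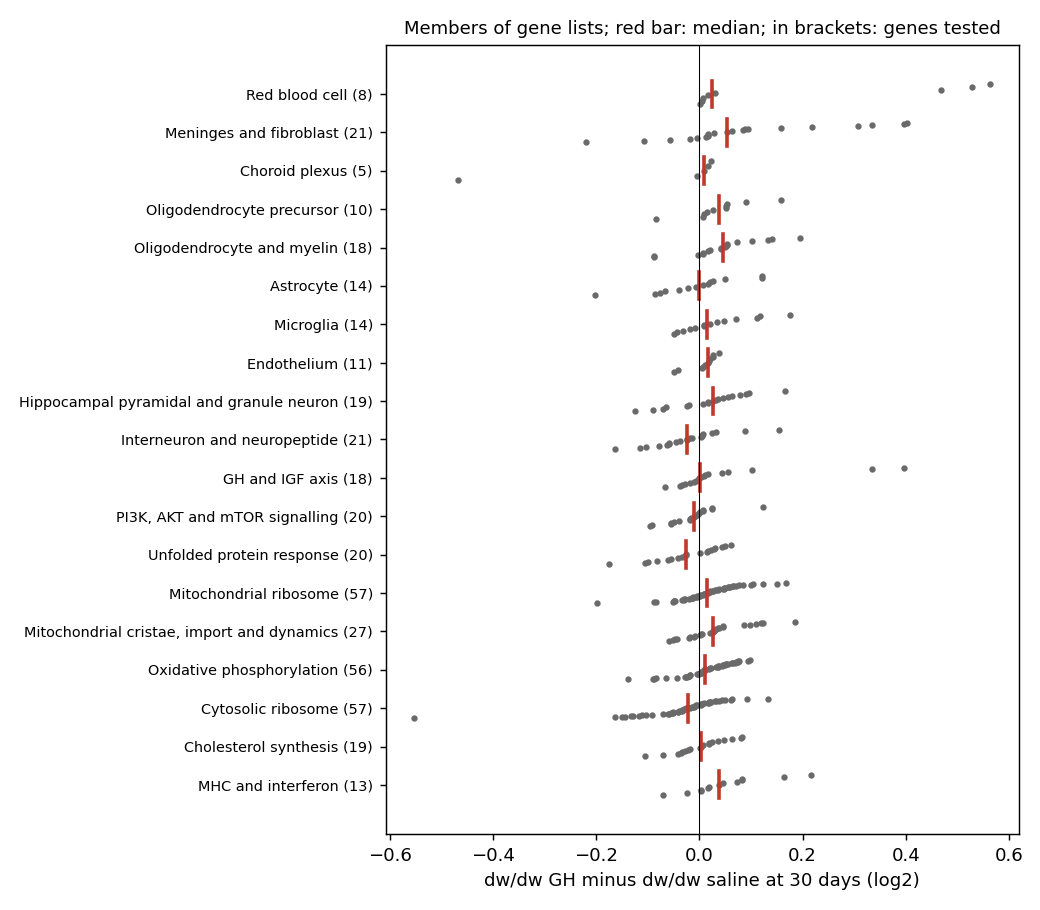
Difference between dw/dw rats given GH and dw/dw rats given saline for 30 days (horizontal axis, log2) for the tested members of 19 gene lists, each point 1 gene and each red bar the list's median; brackets give the number of genes tested. Medians lie between −0.03 and 0.05, while single genes such as the haemoglobins, Ttr and Rpl30 lie far outside.

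Transthyretin (Ttr), the thyroid hormone carrier made by the choroid plexus, varied more than any other gene named here. It measured 9.53, 6.60, 7.29 and 8.78 with GH and 8.80, 8.81, 7.94 and 8.52 with saline, a range across the GH arrays that took in all saline arrays. The difference was −0.47 ± 0.66 (95% interval −1.85 to 0.91), and ran from −0.962 without GH replicate 1 to 0.0152 without GH replicate 2, where its direction turned. The other 4 tested choroid plexus genes, Otx2, Sostdc1, Kcnj13 and F5, differed by 0.02 or less in size, but averaged 6.13 to 6.18 in either group, near background.

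The differences at 30 days were set beside those at 7 days, which come from other, younger rats on another slide, so duration, age and slide cannot be told apart. The change of the GH difference between 7 and 30 days was tested as an interaction, and 0 of 11487 probes passed (0%; smallest adjusted p 0.4619, limma), with 592 (5.15%) at an unadjusted p under 0.05, and 437 of the 7983 named genes (5.47%). Of the 10 higher genes with the smallest p at 30 days, 9 were lower with GH at 7 days, when 48.5% of all named genes were higher. Of the 10 lower genes, 5 were higher at 7 days, and the other 5 and Avp, 6 in all, kept their direction. At 7 days 4 of the 20 had an unadjusted p under 0.05, all with the opposite sign, against 393 of 7983 named genes (4.92%). Mrpl34 differed by −0.09 ± 0.04 at 7 days and 0.17 ± 0.04 at 30 days, and Chchd3 by −0.14 ± 0.05 and 0.19 ± 0.05. Dstyk differed by 0.10 ± 0.04 and −0.14 ± 0.04, and Plekhm2 by 0.15 ± 0.06 and −0.20 ± 0.06. These genes were picked by their values at 30 days, so their interaction is a description: 17 of the 20 had an unadjusted p under 0.05 for it, and the smallest adjusted p among them was 0.462.

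Haemoglobin kept its direction across the durations. Hba-a1 differed by 0.65 ± 0.19 at 7 days and 0.56 ± 0.19 at 30 days, and Hbb-b1 by 0.65 and 0.53. Mx1 differed by 0.46 at 7 days and 0.22 at 30 days. Xbp1 differed by −0.07 ± 0.05 at 7 days and −0.18 ± 0.05 at 30 days. None of these interactions reached an unadjusted p under 0.05, which does not show that the differences were alike.

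**Figure D5:**
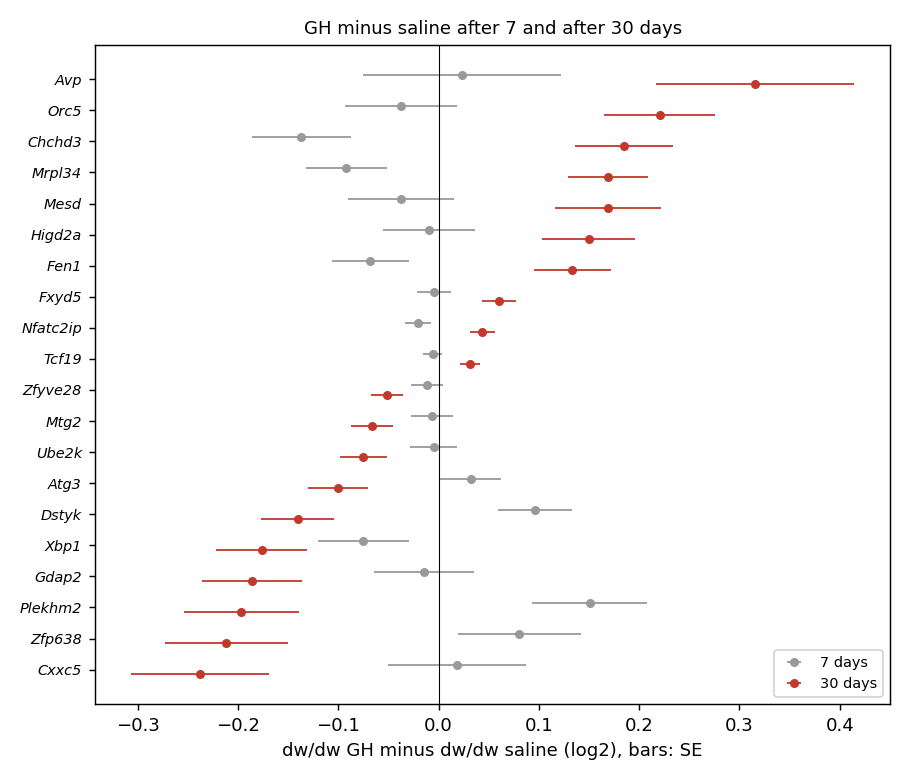
Difference between dw/dw rats given GH and dw/dw rats given saline (horizontal axis, log2; bars are SE) after 7 days (grey) and after 30 days (red) for the 20 genes with the smallest p at 30 days. For 14 of them the 7-day point lies on the other side of 0.

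The dwarf saline group is also one side of the comparison with HZ rats, so the following values share its arrays and are given side by side only. Its mean enters both values with opposite signs. Genes picked for a difference from that mean therefore tend to show opposite signs by construction, which is no evidence of a reversal. Only some of the genes named above are given. With GH, Xbp1 differed from dwarf saline by −0.18 at 30 days, and dwarf saline differed from HZ by 0.16. For Cxxc5 the values were −0.24 and 0.18, for Gdap2 −0.19 and 0.14, and for Dstyk −0.14 and 0.15. Orc5 had 0.22 and −0.14, Higd2a 0.15 and −0.13, and Neurod1 0.17 and −0.18. Chchd3 had 0.19 and −0.01, and Lancl1 0.27 and −0.02.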

How the data were processed

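Hippocampal RNA was biotin-labelled and hybridised to Illumina rat arrays, per the labels' protocols. The authors' deposited table holds an unnormalized intensity and a detection p-value per probe and array, exported with GenomeStudio 2010.2 per the submitters' processing notes. A second deposited table was used as an alternative, and its normalization was not given in the sources used here. Its values were set to at least 1 and log2 was taken before the fit. From their range they may already be on a log2 scale. In that case this alternative was logged again and its differences are compressed. Background correction, quantile scaling and log2 (neqc, offset 16) and the fit of 6 group means over all 24 arrays (lmFit, eBayes) used limma 3.58.1 in R 4.3.3. Of 22226 probes, 11487 were tested, those with a detection p under 0.05 on at least 4 arrays. Of these, 3437 had no gene name. P-values are two-sided, adjusted by Benjamini-Hochberg over all tested probes. A gene with several probes is represented by the brightest.

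Genes were named by rule: 10 smallest p in each direction, 5 largest of the separated genes in each direction, tested members of the GH axis and red blood cell lists, up to 3 per other list by p, and marker levels. Retsat and the further list members given as single differences were named after their values were seen. The comparison, rules and lists were chosen with earlier results of these data known. That the 4 arrays of a group are separate animals comes from the series' design text. The scripts were tested on simulated data. Array number limits the precision. Alternatives covered normalization, filter, offset, arrays fitted, array weights, replicate number as a block and leaving out arrays. Sex-linked transcripts, one of 38 lists, had no tested probe.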

Additional observations from a re-analysis of the deposited data

Results flagged for a closer look

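In 9 of 144 groups of 4 arrays examined for the named genes, 1 array lay far from the other 3 by Dixon's criterion at the 95% level, where chance gives about 7.2. GH replicate 1 was the outlying array for 4 genes, with Homer2 at 6.46 against 6.37 on the nearest GH array, Ndufa12 at 11.2 against 11.3, Egr2 at 7.13 against 7.25 and Retsat at 6.91 against 7.96. GH replicate 4 was high for Igf1r, at 7.12 against 6.99. Saline replicate 2 was high for Atg3, at 6.68 against 6.57, for Mtg2, at 6.38 against 6.34, and for Retsat, at 8.10 against 7.00. Saline replicate 3 was low for Mrpl32, at 7.78 against 7.89.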

How the results depend on the processing

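No probe passed the adjusted threshold in any of the 19 alternatives run for GH against saline at 30 days, and the smallest adjusted p in any of them was 0.831, with array weights. The number of probes at an unadjusted p under 0.05 was 386, and 134 with median scaling (46 higher and 88 lower, against 187 and 199), 995 of 22226 with no filter and 305 to 499 when 1 array was left out. Under median scaling 40.3% of probes were higher with GH, against 49.2%. For the change between 7 and 30 days the number was 592, and 246 with median scaling, 1210 with no filter and 475 to 713 when 1 array was left out. Nothing in the labels says that shared replicate numbers mark pairs. The deviations of same-numbered arrays correlated at 0.462, −0.032, 0.061 and −0.117, and those of other arrays at −0.445 to 0.379. So few values cannot decide whether the numbers mark pairs. With replicate number as a block, 596 probes had an unadjusted p under 0.05 and 0 an adjusted one. That fit used the 8 compared arrays alone, so its count is not directly comparable with 386. Of 1362 values recomputed for 72 genes, 1355 kept their sign, and 67 genes kept it throughout. The exceptions were small: Sst at 0.00914 without GH replicate 1 (range over arrays left out −0.0652 to 0.00914), Ttr at 0.0152 without GH replicate 2 (−0.962 to 0.0152), Cish at −0.00389 without GH replicate 3 and −0.00214 without saline replicate 3 (−0.00389 to 0.00788), Jak2 at 0.00274 without saline replicate 4 (−0.0699 to 0.00274), and Stat5b at −0.00433 without saline replicate 1 (−0.00433 to 0.0205) and −0.00289 without replicate 1 of both groups, a setting chosen after the data were seen. The cause was not tested. Signal near background limits Cish, Socs2, Nfatc2ip and Tcf19.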

Other observations

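Retsat, which encodes a retinol saturase, took values at 2 levels. It measured 6.91, 7.96, 8.05 and 8.10 log2 units in dwarfs given GH for 30 days and 6.83, 8.10, 6.89 and 7.00 in dwarfs given saline. HZ rats given saline measured 8.05, 6.81, 6.89 and 6.82. Over all 24 arrays no value lay between 7.02 and 7.96. The upper level held 3 of 4 GH arrays and 1 of 4 saline arrays at 30 days, 2 of 4 in either dwarf group at 7 days and 1 of 4 in the HZ groups of each age, 10 arrays in all. Between GH and saline at 30 days the difference was 0.55 ± 0.44 (SE; limma, adjusted p = 0.9996), and ran from 0.424 to 0.847 with 1 array left out. Retsat, Hba-a1, Rpl30 and Hbb-b1 were the 4 probes that differed by more than 0.5.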
